A study of Mus musculus with 2 samples.

Results

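The 10 genes described here encode RNA-binding proteins that set splicing choices in skeletal muscle: Mbnl1, Mbnl2, Mbnl3, Celf1, Celf2, Rbfox1, Rbfox2, Rbm20, Rbm24 and Ptbp1. They were chosen by name as a family list. No measured value was part of that choice, but earlier results of these data were known when it was made. They make up 10 of the 55536 genes in the deposited gene tables, with 131 annotated transcripts between them. RNA was measured in gastrocnemius, the large calf muscle, from 2 female mice of the B6CASTF1/J strain, a first-generation cross of B6 and CAST parents, both aged 2 months. Each library was made from 300 ng of total RNA with ERCC spike-in RNAs, and the labels describe no treatment and no engineered allele. The 2 libraries form 1 group, so conditions could not be compared and no p-value was computed. The labels number the mice separately but give both the same donor record. They are called animal 1 and animal 2 here, and the spread between them is technical or within 1 mouse if the record stands for a single animal.

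Pre-mRNA splicing is steered by proteins that bind short motifs near an exon and favour or block its inclusion. MBNL proteins bind motifs such as UGCU and promote the adult splicing pattern of muscle, and in myotonic dystrophy they are held on expanded CUG or CCUG repeats. CELF proteins bind GU-rich RNA and often act against MBNL on the same exons. RBFOX proteins bind GCAUG, RBM24 favours inclusion of muscle exons, RBM20 is best known for skipping titin exons in heart, and PTBP1 binds pyrimidine-rich tracts and represses many exons that differentiated cells use. Transcripts of several of these regulators are themselves alternatively spliced, by their own protein or by other members.

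The isoform results below turn on 4 pairs of small exons that the paralogues share, so their sequences are given first. They were read 5′ to 3′ from the GENCODE M21 transcript sequences, with mm10 positions, and capitals mark the bases that differ between the aligned paralogues. The 54-nt exon of the MBNL genes, known to favour nuclear localisation of the protein, lies at chr3:60614683-60614736 (plus strand) in Mbnl1 and at chr14:120395712-120395765 (plus strand) in Mbnl2. Their 36-nt exon lies at chr3:60621423-60621458 and chr14:120403336-120403371, both on the plus strand. In the RBFOX genes the 40-nt exon is known from brain and the 43-nt exon from muscle, and both encode part of the C-terminal region. These lie at chr16:7363865-7363904 and chr16:7369801-7369843 (plus strand) in Rbfox1, and at chr15:77094451-77094490 and chr15:77091812-77091854 (minus strand) in Rbfox2. All 8 exons are internal and fully coding.
Mbnl1 54-nt exon: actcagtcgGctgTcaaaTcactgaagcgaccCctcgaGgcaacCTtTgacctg
Mbnl2 54-nt exon: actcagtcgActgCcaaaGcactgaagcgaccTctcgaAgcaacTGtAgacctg
Mbnl1 36-nt exon: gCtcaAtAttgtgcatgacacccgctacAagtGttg
Mbnl2 36-nt exon: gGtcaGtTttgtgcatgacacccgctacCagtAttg
Rbfox1 40-nt exon: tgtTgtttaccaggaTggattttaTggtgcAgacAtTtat
Rbfox2 40-nt exon: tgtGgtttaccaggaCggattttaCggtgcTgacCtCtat
Rbfox1 43-nt exon: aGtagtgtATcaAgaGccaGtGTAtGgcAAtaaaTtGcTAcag
Rbfox2 43-nt exon: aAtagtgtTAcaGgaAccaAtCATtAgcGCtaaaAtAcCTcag

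The paralogues shared 46 of 54 bases (85.2%) in the MBNL 54-nt exon, 31 of 36 (86.1%) in the MBNL 36-nt exon and 34 of 40 in the RBFOX 40-nt exon. The RBFOX 43-nt exon was less alike, with 27 of 43 bases identical (62.8%). The RBFOX motif was searched as TGCATG on the transcript strand and on its reverse, a search chosen after the sequences had been read. Both MBNL 36-nt exons held it on the transcript strand, inside a run that the paralogues share, while the other 6 exons held it on neither strand. Among all 536 annotated internal exons of 36 nt, 6 (1.12%) held this motif on the transcript strand and 0 on the reverse. For the other lengths the transcript-strand share was 0.588% of 1360 exons at 54 nt, 0.380% of 263 at 40 nt and 2.10% of 428 at 43 nt. On the reverse strand it was 0.809%, 0.380% and 0.701% of the same exons.

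Of the 10 regulators, 9 were expressed at 1 TPM or more in both animals. Over all 55536 genes, 11889 reached 1 TPM in animal 1 and 11425 in animal 2. TPM divides each gene's reads by its length and scales every library to the same total, so that levels can be set beside each other between genes. The libraries held 45231388 and 47956841 expected counts, which are reads shared out among the transcripts they could have come from. In whole muscle, fewer cells of a type and less RNA per cell cannot be told apart.

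The MBNL genes stood at the top. Mbnl1 (chr3:60472830-60629750) had a level of 167 TPM in the first animal and 177 in the second, or 172 ± 7.67 TPM (SD, n = 2), above 97.3% of expressed protein-coding genes. Mbnl2 (chr14:120275669-120431697) was at 118 and 126 TPM (122 ± 5.64), above 96.2% of them. Mbnl3 (chrX:51117269-51206532), which is known mainly from immature and regenerating muscle, was near absence at 0.11 and 0.09 TPM, from 13 and 17 reads. Within the family's summed TPM, Mbnl1 made up 58.5%, Mbnl2 41.5% and Mbnl3 0.0341%, and the animals gave nearly the same shares, with an SD of 0.0374 points for Mbnl1 and 0.0437 for Mbnl2. The second transcript table, a separate quantification of the same libraries, gave 69.2%, 30.7% and 0.0698%. It therefore kept the order, but the log2 ratio of Mbnl1 to Mbnl2 was 0.50 ± 0.0024 in the gene table and 1.17 ± 0.11 in the second table.

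Rbfox1 (chr16:5885355-7411526) followed at 61.3 and 69.5 TPM (65.4 ± 5.81), above 93.3% of expressed protein-coding genes. Its broadly expressed paralogue Rbfox2 was lower, at 27.2 and 28.2 TPM (27.7 ± 0.700). Rbfox1 thus supplied 70.2% of the summed TPM of this pair, and 74.0% in the second table, with no overlap between the genes in either table. Rbm24, a muscle-enriched regulator, was at 59.8 and 58.3 TPM (59.0 ± 1.05), just below Rbfox1 in both animals.

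Rbm20, Celf2 and Celf1 lay close together. Rbm20, a gene studied mostly in heart, was at 27.5 and 26.2 TPM (26.9 ± 0.919) in this limb muscle. Celf2 was at 26.6 and 24.2 TPM (25.4 ± 1.70), and Celf1 at 23.7 and 22.3 TPM (23.0 ± 0.976). Celf2 made up 52.5% of the CELF pair in the gene table and 55.9% in the second table. Ptbp1 was the lowest of the detected members, at 13.4 and 9.0 TPM (11.2 ± 3.14), above 62.8% of expressed protein-coding genes.

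By mean level the order was Mbnl1, Mbnl2, Rbfox1, Rbm24, Rbfox2, Rbm20, Celf2, Celf1, Ptbp1 and Mbnl3. The ranges of neighbouring genes overlapped for Rbfox2 and Rbm20 and for Rbm20 and Celf2, so these were not separated. The largest steps among detected genes were from Rbm24 to Rbfox2 (2.13-fold), from Celf1 to Ptbp1 (2.05-fold) and from Mbnl2 to Rbfox1 (1.87-fold). Of the 10 genes, 6 held the same rank in the second table. Its levels were mostly higher, with means of 327 TPM for Mbnl1 (1.90-fold), 107 for Rbfox1 (1.64-fold), 44.3 for Celf2 (1.74-fold), 34.9 for Celf1 (1.52-fold) and 0.330 for Mbnl3 (3.30-fold). The other 5 genes lay between 0.992 and 1.35 times their gene-table mean. Higher values there were not particular to the regulators, since most genes of the other lists below rose too. Tnnt3 was at 15540 and 15391 TPM beside 10303 and 10361 in the gene table, and Pkm at 1514 and 1423 beside 967 and 916. Some genes were lower, such as Myh7 at 87.3 and 530 beside 92.6 and 596. The 4 that changed rank were the closely spaced ones, with Celf2 at rank 5, Rbfox2 at 6, Celf1 at 7 and Rbm20 at 8.

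**Figure D1:**
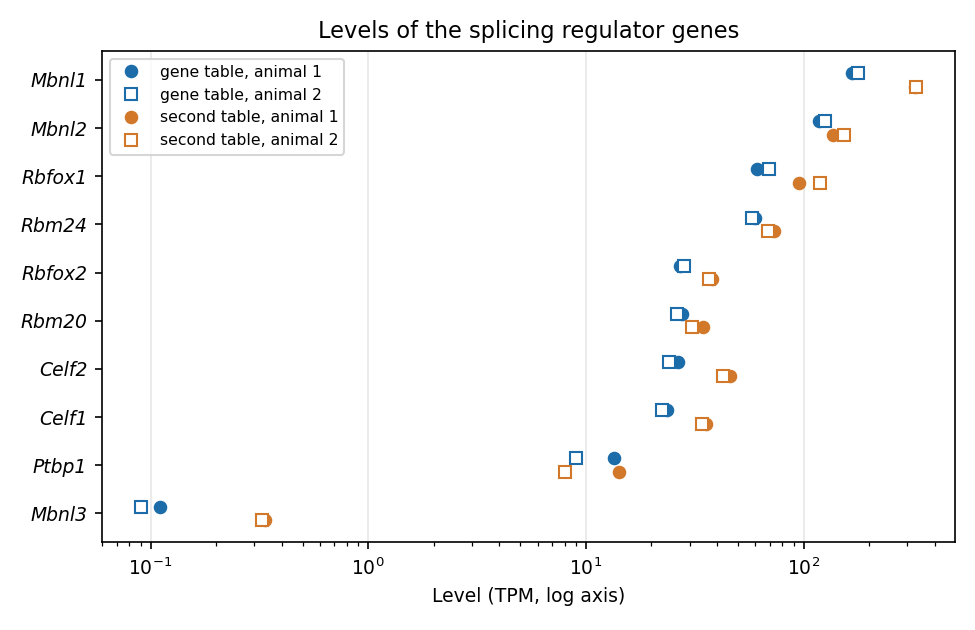
Level of each regulator in TPM on a log axis, with 1 point for each animal in the gene table and in the second transcript table. Mbnl1 and Mbnl2 lie above 100 TPM in both tables, 7 further genes lie between 7.99 and 119 TPM, and Mbnl3 lies below 1 TPM.

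Exonic sequence shared with another annotated gene was found for 3 members and only on the opposite strand. It covered 86 bases of Mbnl2, 1961 of the 25884 exonic bases of Celf2 and 983 of the 4740 of Ptbp1. The strand setting of the counting is not given in the sources used here, so reads from these stretches could belong to either gene.

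Related regulators gave a frame for these levels. Of 30 other splicing regulators in a fixed list, 17 reached 1 TPM in both animals, beside the counts for all genes given above. Qk, the quaking protein of the STAR family, was the highest at 132 and 142 TPM, between Mbnl1 and Mbnl2 in level. Rbm38, a close relative of Rbm24, was at 85.8 and 88.3 TPM and so above Rbm24 itself. The other members of the CELF and RBFOX families were nearly silent, with Celf3, Celf4, Celf5, Celf6 and Rbfox3 each at or below 0.12 TPM in both animals. Ptbp2, the paralogue that replaces Ptbp1 in neurons, was at 7.27 and 5.70 TPM in the gene table, below Ptbp1 in each animal. In the second table Ptbp2 was at 12.3 and 10.1 TPM beside 14.3 and 7.99 for Ptbp1, so it was above Ptbp1 in animal 2. All 22 genes of a list of known targets of these regulators were detected. The list was chosen with earlier results of these data known, so this count carries no weight of its own. Levels ran from Tnnt3, the fast troponin T, at 10303 and 10361 TPM down to Actn1, which encodes a non-muscle actinin, at 8.27 and 4.25 TPM.

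Between the animals the regulators differed little. Of the 9 with a mean count of 100 or more, 0 were 2-fold or more apart, beside 322 of 10872 genes (2.96%) past that fold, and 7 were higher in animal 2, beside 54.8% of all genes tested. With library size alone 3 of the 9 were higher in animal 2, beside 31.9% of all, and with spike-in scaling 8 of 9, beside 80.6%. Their median log2 ratio of animal 2 over animal 1, from counts scaled with edgeR's TMM factors, was 0.06, and that of all genes tested was 0.02. Scaling on the spike-ins instead put the median of all genes at 0.22, and library size alone put it at -0.09, so small ratios are best read against that shift. The brackets that follow are exact 95% intervals, which cover counting error only.

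Ptbp1 was the furthest apart of the 9. Its reads numbered 768 and 529, which gave a log2 ratio of -0.51 [-0.68, -0.35], or 1.43-fold more in animal 1. Of all genes tested, 10.1% were further apart in either direction. The ratio ranged from -0.31 with spike-in scaling to -0.72 in the second table and kept its sign in all alternatives. Of the 18 related regulators tested, 5 were lower in animal 2 and 13 higher with TMM scaling, beside 8 and 10 with DESeq2's scaling and 13 and 5 with library size alone. Ptbp3, another PTB paralogue, had 866 and 648 reads (log2 ratio -0.39), and Raver2, which encodes a PTB-binding cofactor, had 485 and 376 reads (-0.34). Ptbp2 stood near 0, with 636 and 621 reads (-0.01). The other two that were lower in animal 2 were Nova1 (-0.58) and Rbpms (-0.53).

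Markers of adipocytes, Schwann cells and smooth muscle differed in the same direction as Ptbp1. All 5 adipocyte markers were 2-fold or more higher in animal 1, with a summed level of 568 against 34.0 TPM. The same held for all 5 Schwann cell markers (244 against 32.9 TPM) and for 4 of 5 smooth muscle markers (203 against 108 TPM). Fibroblast markers differed less, at 494 and 428 TPM with 1 of 5 past 2-fold, and endothelial markers stood at 67.3 and 60.3 TPM with 0 of 5. Neuron markers summed to 1.35 and 1.33 TPM, satellite cell markers to 10.4 and 9.29 TPM, and markers of proliferating cells to 8.62 and 8.34 TPM, of which 1 gene had no read in either animal. Fast fibre markers, which define the gastrocnemius, summed to 32546 and 31149 TPM. All 5 slow fibre markers were 2-fold or more higher in animal 2, at 353 against 2024 TPM. The part of any of these cell types in the regulators' differences was not tested.

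Of the 9 members compared, Rbfox1, Mbnl2 and Mbnl1 were furthest apart toward animal 2. Rbfox1 had 4904 and 5998 reads, a log2 ratio of 0.32 [0.26, 0.37]. Mbnl1 had 20711 and 23852 reads (0.23 [0.20, 0.26]) and Mbnl2 had 11475 and 13320 (0.24 [0.20, 0.28]). Together with Ptbp1, these are the 4 members whose sign was the same under all scalings and in both tables.

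Rbm20 was slightly lower in animal 2, with 3931 and 3489 reads and a log2 ratio of -0.15 [-0.21, -0.08] that turned to 0.05 under spike-in scaling. Celf1 (0.10), Celf2 (0.05), Rbfox2 (0.06) and Rbm24 (0.05) lay close to 0, and each turned negative with library-size scaling. The known targets had a median log2 ratio of 0.13, with 0 of 22 past 2-fold, beside 2.96% of all genes tested. With TMM scaling 19 were higher in animal 2, beside 54.8% of all. With library size alone 13 of the 22 were higher in animal 2, beside 31.9% of all, and with spike-in scaling 21 were, beside 80.6%.

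**Figure D2:**
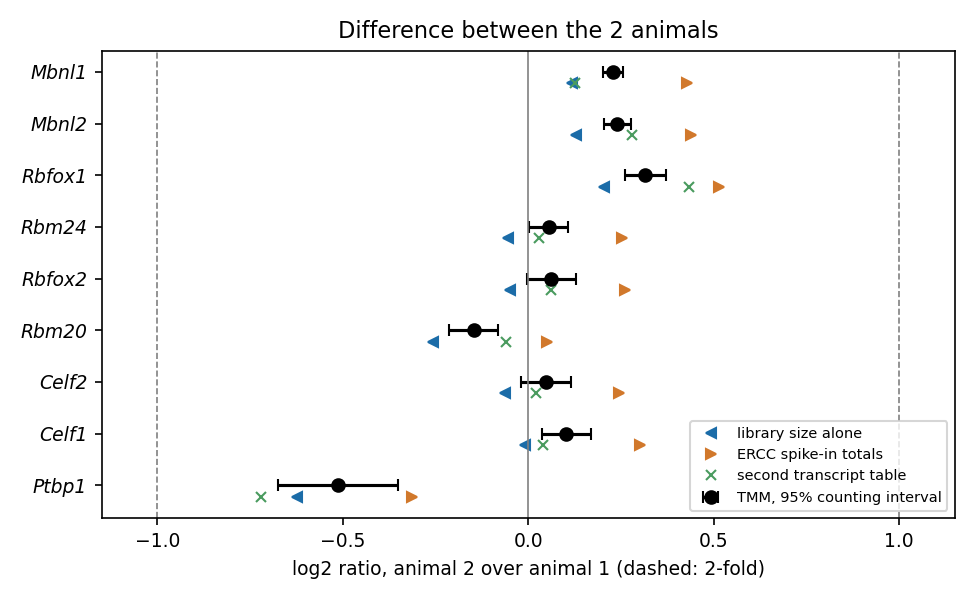
Log2 ratio of animal 2 over animal 1 for each regulator, with TMM scaling as the main value, its exact 95% counting interval as a bar, and the other scalings and tables as further marks. Ptbp1 lies below 0 and Rbfox1, Mbnl1 and Mbnl2 above 0 under all settings shown. Ptbp1 has the widest interval, and Mbnl3, with 13 and 17 reads, is not drawn.

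Transcript tables split each gene's level into annotated isoforms. These are estimates from reads that often match several isoforms, not counts of splice junctions, and the first and second tables are 2 separate estimates. For the 9 detected members, a median of 75.5% of gene TPM fell on protein-coding transcripts in the first table and 81.4% in the second. All 4032 protein-coding genes at 10 TPM or more with several transcripts had a median of 93.5% and 93.3% in the animals, with a lower quartile of 76.4% and 76.6%. In the second table their medians were 91.4% and 91.5%, with a lower quartile of 70.7% and 70.6%. The rest of each gene's TPM lay on nonsense-mediated decay transcripts, whose early stop codon marks them for degradation, on retained-intron transcripts and on processed transcripts, which carry no annotated open reading frame.

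The members differed widely in this share. Rbfox1 was wholly protein-coding in both tables. Rbm24 had 85.3% and 83.7% in the first table and 100% in the second, with nearly all of it on Rbm24-201. Rbm20 was lowest in animal 1, with 43.2% in animal 1 and 66.9% in animal 2. Mbnl2 had 58.7% and 57.7%, beside 82.0% and 80.8% in the second table.

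These shares depended on the unit. Celf1-213, a processed transcript of 478 nt, held 17.9% and 13.2% of Celf1 TPM but 1.66% and 1.16% of its reads. As a share of expected counts, the median protein-coding share of the 9 members was 90.6%, beside 97.3% in each animal for all 4032 genes. By counts the lower quartile of all these genes was 90.2% and 90.1%. The protein-coding share was lower by counts than by TPM for Mbnl2 (52.4% against 58.2%) and Rbm20 (43.1% against 55.1%).

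**Figure D3:**
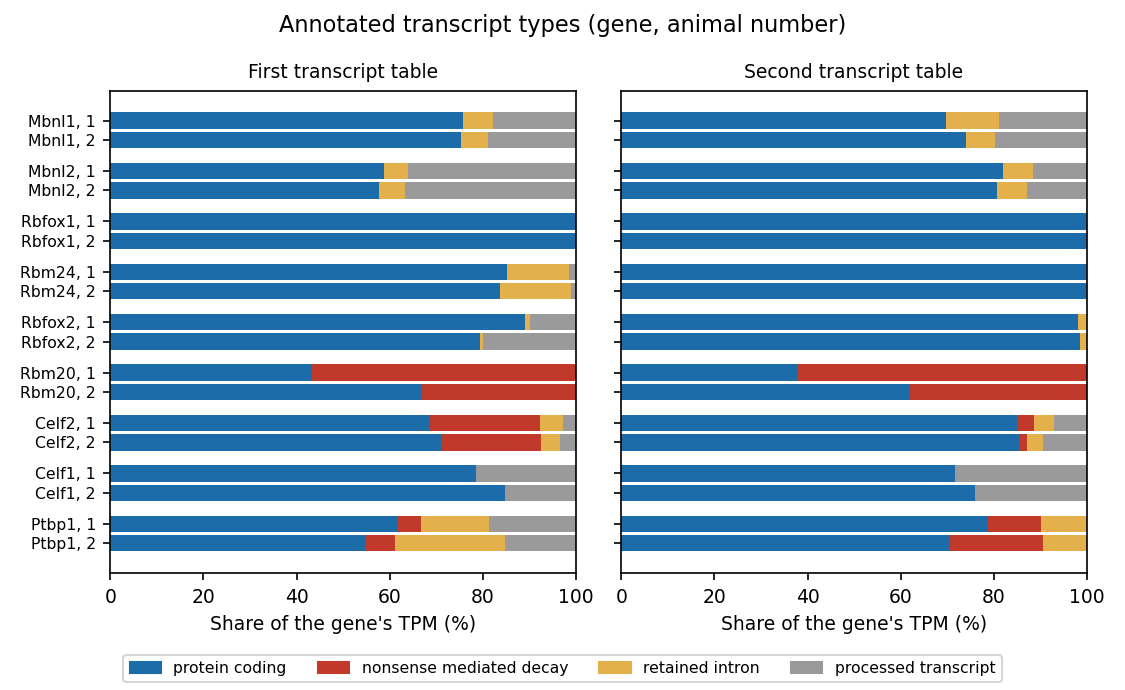
Share of each regulator's TPM by annotated transcript type, as stacked bars in percent for each animal in the first and the second transcript table. Mbnl3 is not drawn. Rbfox1 reaches 100% protein-coding in both tables. Rbm20 shows the largest nonsense-mediated decay share in both, 56.8% in animal 1 and 33.1% in animal 2 in the first, and 62.3% and 38.1% in the second.

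Mbnl1 was spread over many isoforms. Its leading transcript, Mbnl1-201, held 23.1% and 21.5% of the gene's TPM in the first table and 18.6% and 18.4% in the second. In the first table it was followed by Mbnl1-214 with 14.3% and 15.1%, Mbnl1-221 with 11.7% and 14.2%, and the processed transcript Mbnl1-208 with 10.5% and 12.3%. The second table had Mbnl1-210 next, at 19.2% and 17.0% and so above Mbnl1-201 in animal 1, while the first put it at 3.05% and 2.39%. There Mbnl1-221 held 12.3% and 14.7%, Mbnl1-208 9.34% and 11.2%, and Mbnl1-214 9.03% and 9.94%. The 54-nt exon was included in 41.6% and 40.6% of the protein-coding TPM that spans it (32.2% and 33.2% in the second table), and the 36-nt exon in 62.0% and 59.4% (66.8% in both animals in the second table).

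The small Mbnl1 exons came together in a few combinations. Transcripts with the 36-nt and a 95-nt exon but not the 54-nt exon held 55.9% ± 0.884 (SD, n = 2), and those with the 54-nt and 95-nt exons but not the 36-nt exon held 25.4% ± 0.524. The transcript with the 54-nt exon alone held 13.9%. The annotated transcript with all 3 exons was at 0 in both tables. The 95-nt exon itself was included at 81.6% and 81.1%. A 111-nt exon was at 4.06% and 3.18% in the first table but at 27.6% and 23.0% in the second, so the tables gave no common level.

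For the homologous exons of Mbnl2 the value depended on the table, and the 54-nt share was below that of Mbnl1 in the first table and above it in the second. In the first table the 54-nt exon was included at 3.26% and 2.91%, and 96.3% of spanning TPM held neither small exon. The second table put the 54-nt exon at 42.2% and 39.8% and the transcripts with neither at 46.0%. The 36-nt exon of Mbnl2 was at 1.27% in animal 1 and 0 in animal 2 in the first table, and at 10.1% and 16.1% in the second. The tables split the gene differently between Mbnl2-204 and Mbnl2-201. Mbnl2-204, which lacks both exons, led with 56.0% and 56.1% in the first table and 39.2% and 35.6% in the second, while Mbnl2-201 had 1.91% and 1.68% in the first and 34.5% and 32.2% in the second. Mbnl2-205, a 2-exon processed transcript, held 35.0% and 36.1% in the first and 11.6% and 12.8% in the second.

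The structures of these transcripts show where the reads that separate them lie. Of the 2162 bases that Mbnl2-201 has and Mbnl2-204 lacks, 2071 are in the last exon, which is 2763 nt in Mbnl2-201 and 692 nt in Mbnl2-204. Mbnl2-205 holds the same number of bases, 2071, beyond Mbnl2-204 in its own last exon, also 2763 nt long. The 54-nt exon is thus a small share of the sequence that tells Mbnl2-201 from Mbnl2-204. The animals lay close for this exon within each table, at a mean of 3.09% ± 0.244 in the first and 41.0% ± 1.71 in the second (SD, n = 2).

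For the alternative pair of exons in the RBFOX genes the tables lay closer. In Rbfox1 each of the 6 annotated coding transcripts across the region carries either the 40-nt or the 43-nt exon, never both and never neither. The 40-nt exon made up 49.8% and 51.5% in the first table (53.2% and 50.1% in the second) and the 43-nt exon the remaining 50.2% and 48.5% (46.8% and 49.9%). The 43-nt share rested on different transcripts in each table. Rbfox1-203 held 50.2% and 48.5% of gene TPM in the first table and 36.6% and 29.7% in the second. Rbfox1-206 (558 nt) was at 0 in the first and at 9.83% and 18.6% in the second. It is outside the rule for named transcripts and was named after its values were seen. In the first table Rbfox1-201, which holds the 40-nt exon, had 3376 and 4221 reads. Rbfox1-203, with the 43-nt exon, had 1516 and 1765 reads over a shorter sequence. Of the 1937 bases that Rbfox1-201 has and Rbfox1-203 lacks, 1713 lie in the last exon (1836 against 123 nt), so most of the sequence that separates them lies at the 3′ end.

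In Rbfox2 the 40-nt exon exceeded the 43-nt exon in both animals and both tables. The 40-nt exon was at 62.3% and 63.8% (55.4% and 58.0% in the second table) and the 43-nt exon at 33.7% and 34.8% (34.7% and 34.8%). Transcripts with neither made up 2.69% in the first table and 8.55% in the second. By these estimates the 40-nt share was above that of Rbfox1 in each animal in both tables. Rbfox2-207, with the 43-nt exon, had 257 and 266 reads in the first table, beside 2276 and 2352 for Rbfox2-203, with the 40-nt exon. Of the 5575 bases that Rbfox2-203 has and Rbfox2-207 lacks, 5171 lie in the last exon (5216 against 45 nt). Most of the sequence that separates these transcripts thus lies at the 3′ end. A 93-nt exon of Rbfox2, which is known to encode part of the RNA recognition motif, was at 69.5% and 68.6% (66.1% and 69.1%), and a 51-nt exon was at 96.7% and 100% (87.4% and 94.2%). Rbfox2-203 led with 34.3% and 32.2% of gene TPM, followed by Rbfox2-207 with 26.6% and 24.96% and Rbfox2-204 with 14.6% and 13.6%. In the second table Rbfox2-203 had 29.4% and 32.1%, Rbfox2-207 31.4% and 29.8%, and Rbfox2-204 20.4% and 17.6%.

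The remaining exons in the range were in Celf2 and Ptbp1. A 144-nt exon of Celf2 was included at 81.4% and 85.7% (82.8% and 81.8% in the second table), and a 197-nt exon at 100% in both animals (88.4% and 90.8%). Celf2-206 led the gene with 36.4% and 38.1%. Celf2-209, a short coding transcript, was at 0 in the first table and at 20.6% and 18.0% in the second. Celf2-228, a nonsense-mediated decay transcript that holds a 41-nt exon, had 23.7% and 21.3% in the first table but 3.66% and 1.47% in the second. Celf1 had no coding exon in this range. Celf1-201 (25.1% and 25.8%) was ahead of Celf1-206 (22.1% and 22.4%) in both animals in the first table. In the second, Celf1-201 held 24.9% and 23.6% and Celf1-206 held 24.8% and 28.0%. Celf1-206 was thus ahead there by its mean share and in animal 2 only. Celf1-204 held 17.8% and 15.0% in the first and 8.16% and 10.1% in the second. Rbm24 has 1 annotated protein-coding transcript and so no choice of coding exon. The retained-intron transcript Rbm24-205 held 10.4% and 12.1% in the first table and 0 in the second. Mbnl3, with few reads, was led by Mbnl3-202 in the first table (54.5% and 90%) and by the retained-intron transcript Mbnl3-206 in the second (61.4% and 63.9%).

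A 78-nt exon of Ptbp1 was at 32.0% and 40.8% in the first table and 78.4% and 98.6% in the second, the widest gap between tables of any exon described. The first table gave Ptbp1-202, which lacks it, 346 and 119 reads, and its own posterior SD for these was 42.0 and 42.4 reads. Ptbp1-202 led in the first table by its mean share (27.3% and 13.3%), and Ptbp1-216 led in the second (47.6% and 64.9%, beside 12.9% and 11.9% in the first). Ptbp1-209 (17.9% and 20.2%) and the processed transcript Ptbp1-203 (17.2% and 13.1%) were seen in the first table and were at 0 in the second. The decay transcript Ptbp1-201 held 5.21% and 6.35% in the first and 11.4% and 19.9% in the second. Ptbp1 also has a 34-nt exon whose skipping gives a nonsense-mediated decay transcript, the route by which PTBP1 is known to limit its own level. This exon lies outside the range that named the others and was added after its value was seen. Over all transcripts that span it, it was included at 89.1% and 84.5% in the first table and 84.8% and 77.4% in the second.

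In all, 33 coding exons of 8 members could be skipped in the annotation, and 15 of them, in 6 members, had an inclusion share between 5% and 95% in both animals in either table. Of these 15, 9 have a length that is a multiple of 3, and 9 were in the range in both tables. The animals differed by a median of 1.27 points in the first table and 2.61 in the second, and by 20.2 points at most. The tables lay within 10 points of each other for 10 of the 15, with gaps from 0.507 to 52.0 points.

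**Figure D4:**
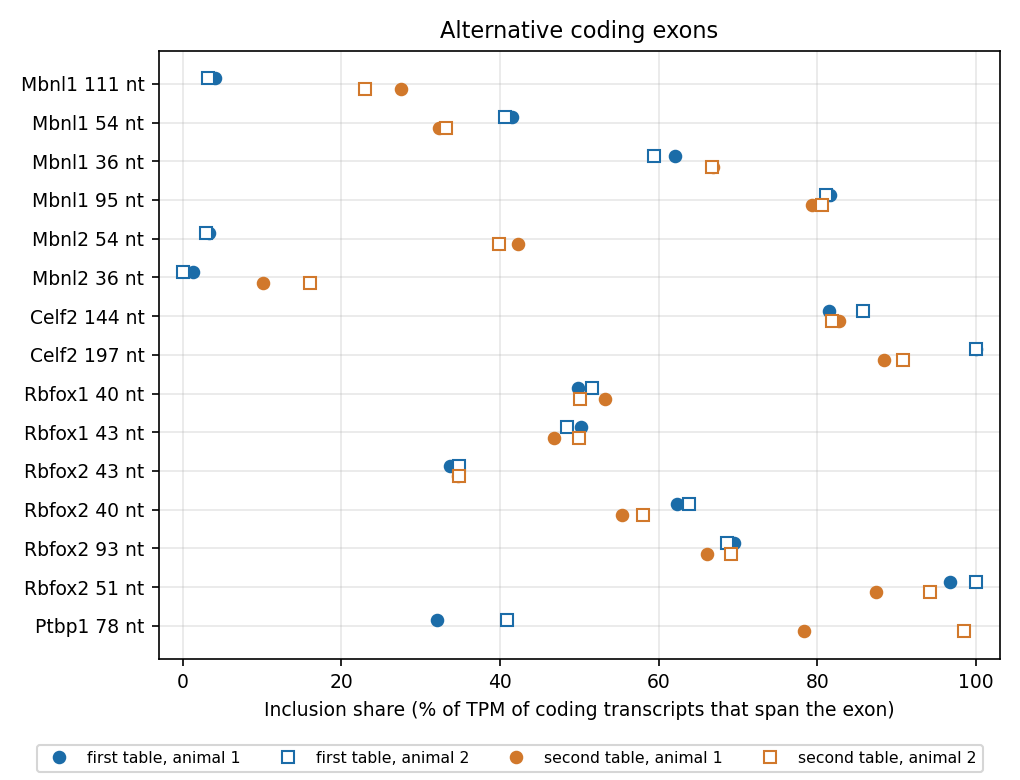
Inclusion share in percent of the 15 alternative coding exons, with 1 point for each animal in the first and in the second transcript table. The animals lie within 8.80 points of each other in the first table and within 20.2 in the second, where the Ptbp1 78-nt exon is widest apart. The tables stand furthest apart for the Ptbp1 78-nt, Mbnl2 54-nt and Mbnl1 111-nt exons.

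Among the 8 members at 10 TPM or more in both animals, Rbm20 had the transcript shares furthest apart between the animals. The transcript with its highest mean share, Rbm20-201, is annotated as a nonsense-mediated decay transcript and held 56.8% of the gene's TPM in animal 1 and 33.1% in animal 2. The second table gave 62.3% and 38.1%. The full-length coding transcript Rbm20-203 went the other way, with 23.6% in animal 1 and 35.4% in animal 2, and 30.8% and 45.9% in the second table. Rbm20-201 thus held the highest share in animal 1 and Rbm20-203 in animal 2, in both tables. The short coding fragment Rbm20-202 held 19.7% and 31.5% in the first table and 6.86% and 16.0% in the second.

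In reads, Rbm20-201 had 2685 in animal 1 and 1587 in animal 2, with posterior SDs of 24.7 and 27.6 reads, and Rbm20-203 had 1171 and 1781. In TPM, Rbm20-201 was at 15.6 and 8.69 and Rbm20-203 at 6.49 and 9.28. The summed gene level differed far less, at 27.5 and 26.2 TPM. With 1 library for each animal, these differences have no replicate check.

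Transcripts were compared between the animals where they held a mean of 10% or more of a gene at 10 TPM or more in both. Among those of the members, 4 of 23 in the first table were 10 points or more apart between the animals, beside 8.09% of 7973 transcripts of all genes. In the second table it was 2 of 25, beside 14.1% of 11627. Rbm20-201 and Rbm20-203 were in both counts, and the short fragments Rbm20-202 (465 nt) and Rbfox2-205 (417 nt) in the first only. Rbfox2-205 is outside the rule for named transcripts and was named after its values were seen. Of all transcripts compared, 0.552% in the first table and 2.00% in the second were further apart than Rbm20-201. The median difference over the member transcripts was 1.74 points, beside 2.62 for all, and 2.78 beside 3.38 in the second table.

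The Rbm20 transcripts differ along much of their structure. Rbm20-201 has 7 exons and 4663 nt, of which 1520 are annotated as coding, and Rbm20-203 has 14 exons and 4892 nt, of which 3597 are coding. Rbm20-201 has 1759 bases that Rbm20-203 lacks, 1700 of them in its last exon of 3001 nt and 46 in the exon at chr19:53852354-53852399 (plus strand), whose length is not a multiple of 3. Rbm20-203 has 1988 bases of its own, 0 of them in its last exon. The exon is printed because it separates the transcript with the early stop from the coding one. It lies outside the range that named the other exons and was chosen after its values were seen.
Rbm20 46-nt exon: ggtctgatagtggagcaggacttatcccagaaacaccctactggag

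Over all transcripts that span it, this exon was included at 70.7% in animal 1 and 48.4% in animal 2 in the first table, and at 66.9% and 45.3% in the second. Only Rbm20-201 holds the exon and only Rbm20-203 skips it. These values therefore restate the levels of those transcripts given above and are not a separate measurement. The 46-nt exon is a small share of the 3747 bases that separate Rbm20-201 from Rbm20-203, of which 45.4% lie in the last exons, and junction reads were not analysed here. Marker levels of adipocytes, Schwann cells and smooth muscle were higher in animal 1 and those of slow fibres higher in animal 2, as given above, and their part in the Rbm20 difference was not tested.

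**Figure D5:**
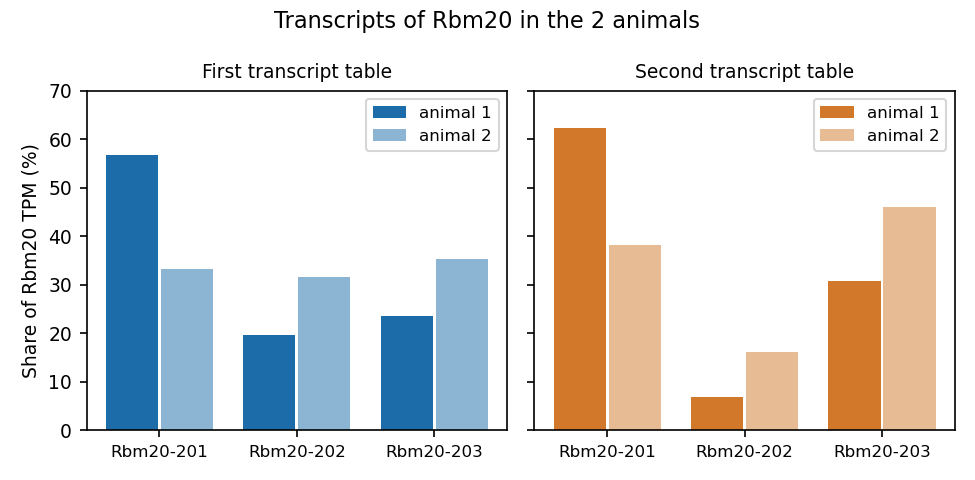
Share of Rbm20 TPM in percent on each of its 3 annotated transcripts, for each animal in the first and the second transcript table. Rbm20-201 is at 56.8% in animal 1 and 33.1% in animal 2 in the first table and at 62.3% and 38.1% in the second, while Rbm20-203 is higher in animal 2 in both tables.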

How the data were processed

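Per library, the deposited data were a gene table and a pair of transcript tables. Expected counts and TPM in the gene table and in the first of these are the authors' own, in RSEM's column layout, and so is the posterior SD of each count, a score in reads that the deposited files give beside it. The deposited first transcript table also states each transcript's percent of its gene. Estimated counts and TPM of the second transcript table are laid out as kallisto writes them, per the file headers. All rest on mm10 and GENCODE M21, according to the deposited file lists, the first tables by way of transcriptome alignments and the second straight from reads. For tool versions and the strand setting the sources used here give nothing. Reads of a B6 and CAST cross were assigned on mm10, a B6 genome, and the loss of CAST reads was not analysed here.

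Total expected counts were 45231388 and 47956841. Rows without a gene name (26249, with 4 and 5 reads, or 8.84e-06% and 1.04e-05%) and the ERCC spike-ins (216553 and 185528 counts) stayed out of library sizes. Expected counts were rounded to whole numbers and scaled with edgeR's TMM factors. Log2 ratios used a prior count of 0.5, and 2-fold counts covered genes whose mean count reached 100. Transcript shares were compared for genes at 10 TPM or more in both animals. An exon's inclusion share is the TPM of protein-coding transcripts that hold it over the TPM of those that span it. Intervals are exact binomial at 95%. No test was possible with 1 group of 2 libraries.

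The members and all lists were chosen with earlier results of these data known. All 10 members are named. Transcripts are named where they lead a gene in either table or hold 10% or more of its TPM in both animals in either table. Exons are named where they are internal, fully coding, at most 300 bases and included at 5% to 95% in both animals in either table. The ratio calculation was tested on simulated data. The alternatives tried were size factors from DESeq2, library size alone, spike-in totals, a prior count of 5, the second table, the ratio of deposited TPM, TPM rescaled over nuclear protein-coding genes, other limits on counts and on detection, shares by expected count, all transcripts that span an exon, and leaving out either library. Python 3.11.15, pandas 2.3.3, numpy 2.4.6, scipy 1.17.1, matplotlib 3.10.9, R 4.3.3, edgeR 4.0.16 and DESeq2 1.42.0 were used.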

Additional observations from a re-analysis of the deposited data

How the results depend on the processing

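Of the 10 genes, 6 held their rank in the second transcript table. The median protein-coding share of 75.5% became 81.4% in the second table and 90.6% as a share of expected counts, and the cause was not tested. The count of members past 2-fold stayed at 0, and 9 members stayed at 1 TPM or more, under all alternatives run for them. The second table moved 9 of 10 levels, 5 of 10 log2 ratios between the animals, 8 of 10 protein-coding shares, 8 of 10 leading transcript shares and 11 of 15 exon shares by more than the spread of the animals or the counting interval. DESeq2's scaling and a prior count of 5 moved 0 of 10 log2 ratios. Spike-in totals moved 9 of 10 by more than the counting interval, library size alone 8 of 10 and the ratio of deposited TPM 7 of 10. Signs turned for Celf1 (-0.01), Celf2 (-0.06), Rbfox2 (-0.05) and Rbm24 (-0.06) with library size alone. Spike-in totals turned Rbm20 (0.05). The ratio of deposited TPM turned Mbnl3 (-0.29), Celf1 (-0.09), Celf2 (-0.14) and Rbm24 (-0.04). Rescaling TPM over nuclear protein-coding genes moved 10 of 10 levels, with Mbnl1 at 456 TPM in place of 172. Leaving out a library always moves a mean of 2 by less than its SD, so it says nothing about stability. In single animals the leading transcript matched that of the mean in 8 and 9 of 10 members, Ptbp1-202 held 13.3% and 27.3%, and the protein-coding share of Rbm20 was 66.9% and 43.2%. The ratio between the animals needs both libraries and has no such alternative. No paired analysis was possible because the series has 1 group. Depth limits Mbnl3, with 13 and 17 reads, and the transcripts of Ptbp1.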
